A study of Mus musculus with 2 samples.

Results

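The genes described are the proteasome genes, the 45 protein-coding genes of 22225 in the mm9 annotation whose symbols begin with Psma, Psmb, Psmc, Psmd or Psme followed by a digit. They were taken by symbol alone and held 3 immunoproteasome genes, Psmb8, Psmb9 and Psmb10, and 42 others. Of these others, 2 matched the symbol rule without encoding a subunit: Psmc3ip, a meiotic recombination factor named after its binding to Psmc3, and Psme2b-ps, a retrocopy of Psme2 that this annotation lists as coding. A start site peak is a peak of open chromatin that came within 1 kb of the start of any transcript of a gene. The 45 genes had 47 start site peaks in control enteroids and 45 in Taf4-inactivated enteroids.

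Enteroids are 3D epithelial cultures, established here from the ileal crypts of mice aged 4 months on a C57Bl6/129sv background. Open chromatin was profiled by ATAC-seq, in which a transposase cuts accessible DNA and tags it for sequencing, after 3 days in 1 µM 4-hydroxytamoxifen (4-OHT). Control enteroids were Taf4 lox/lox, with floxed but intact Taf4 alleles, and Taf4-inactivated enteroids were Taf4 lox/lox::VilCreERT2, in which the Villin promoter drives a 4-OHT-dependent Cre recombinase in the intestinal epithelium. Both received 4-OHT, only the second carried Cre, and Taf4 encodes a component of TFIID, which assembles at core promoters. The comparison asks how the chromatin of these genes differed shortly after Taf4 loss. Each genotype had 1 library, so the differences given are between 2 libraries, without a test and without an estimate of the spread between cultures.

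The proteasome is the protease that degrades proteins tagged with ubiquitin. Its barrel-shaped 20S core is built from rings of alpha and beta subunits, with the proteolytic sites on a few beta subunits. The 19S particle that caps the core has a base, with ATPases that unfold the substrate, and a lid that removes ubiquitin. Interferon induces other catalytic beta subunits that take the place of the constitutive ones and form the immunoproteasome, which is known for making peptides for MHC class I presentation. The subunits are needed together in fixed proportions, and their genes are known to be raised together by the factor Nfe2l1 through antioxidant response elements when proteasome activity is short.

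The control list held 90445 peaks and the Taf4-inactivated list 71282. The background level under the peaks of the second library, taken here as an estimate of its depth, was 60.5% of that of the first. The part of depth in the differences below was not tested. Fold enrichment is relative to the background of each library, so each peak was placed by the percentile of its fold within its own list. For a gene, the percentile is that of its start site peak with the highest fold. Below, after inactivation stands for the Taf4-inactivated library. Start sites of 7 of 8 epithelial marker genes had a peak in control and 8 of 8 after inactivation, with Krt20 the exception in control. The ileal markers Slc10a2 and Fabp6 had one in control and Slc10a2 alone after inactivation, and the leukocyte markers Ptprc, Cd3e and Cd79a had none in either list. Of 8 fibroblast, endothelial, muscle and nerve markers, 6 had one in control and 5 after inactivation, at percentiles of 10.7 to 81.9 and 18.1 to 67.5, and Col3a1 and Cdh5 had none in either. The Taf4a start site peak was present in both lists, at percentiles 74.7 and 58.7, and does not report on the floxed exons.

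To show what lay under these peaks, the promoters of the constitutive catalytic genes, of the immunoproteasome genes and of the members whose rank differed most, downwards and upwards, follow, on mm9, 5′ to 3′ along the gene, from 250 bases before the start to 50 from it on. Capitals mark matches to TGACNNNGC, the core of the antioxidant response element, to CCGGAAG, an ETS site, and to CCAAT, an NF-Y site, on either strand.
Psmb5, chr14:55236783-55237082, minus strand: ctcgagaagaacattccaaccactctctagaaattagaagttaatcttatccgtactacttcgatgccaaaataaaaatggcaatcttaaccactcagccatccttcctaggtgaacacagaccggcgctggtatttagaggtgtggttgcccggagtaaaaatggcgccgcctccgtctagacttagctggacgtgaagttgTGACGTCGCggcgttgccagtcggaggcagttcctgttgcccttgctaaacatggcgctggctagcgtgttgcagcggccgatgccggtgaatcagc
Psmb6, chr11:70338638-70338937, plus strand: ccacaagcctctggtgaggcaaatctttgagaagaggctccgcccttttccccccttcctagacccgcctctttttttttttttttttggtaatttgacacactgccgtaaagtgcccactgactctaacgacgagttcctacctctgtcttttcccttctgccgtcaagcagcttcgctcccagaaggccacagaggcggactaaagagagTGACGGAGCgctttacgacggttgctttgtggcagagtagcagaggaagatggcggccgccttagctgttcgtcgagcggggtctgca
Psmb7, chr2:38499558-38499857, minus strand: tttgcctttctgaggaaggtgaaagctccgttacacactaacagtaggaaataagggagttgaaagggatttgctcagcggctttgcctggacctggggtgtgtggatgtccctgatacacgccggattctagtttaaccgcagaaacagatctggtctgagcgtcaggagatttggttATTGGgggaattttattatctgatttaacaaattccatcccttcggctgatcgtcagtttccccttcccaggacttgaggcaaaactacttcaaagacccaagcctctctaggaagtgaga
Psmb8, chr17:34334485-34334784, plus strand: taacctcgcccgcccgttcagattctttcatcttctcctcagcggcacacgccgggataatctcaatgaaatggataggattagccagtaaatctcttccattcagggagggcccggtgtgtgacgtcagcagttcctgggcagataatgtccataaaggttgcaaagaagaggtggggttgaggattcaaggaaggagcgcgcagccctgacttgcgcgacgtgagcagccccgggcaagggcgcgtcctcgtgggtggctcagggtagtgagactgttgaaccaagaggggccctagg
Psmb9, chr17:34324660-34324959, minus strand: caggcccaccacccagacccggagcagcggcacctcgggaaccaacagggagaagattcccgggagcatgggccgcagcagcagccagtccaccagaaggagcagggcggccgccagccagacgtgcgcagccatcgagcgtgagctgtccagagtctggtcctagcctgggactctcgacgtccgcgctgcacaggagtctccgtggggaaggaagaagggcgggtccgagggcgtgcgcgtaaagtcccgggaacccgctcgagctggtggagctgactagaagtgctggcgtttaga
Psmb10, chr8:108462243-108462542, minus strand: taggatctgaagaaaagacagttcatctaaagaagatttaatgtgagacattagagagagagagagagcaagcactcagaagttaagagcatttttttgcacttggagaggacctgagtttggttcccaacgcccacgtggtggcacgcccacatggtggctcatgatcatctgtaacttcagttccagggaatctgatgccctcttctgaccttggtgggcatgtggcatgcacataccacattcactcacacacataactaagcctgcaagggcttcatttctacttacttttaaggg
Psme1, chr14:56196947-56197246, plus strand: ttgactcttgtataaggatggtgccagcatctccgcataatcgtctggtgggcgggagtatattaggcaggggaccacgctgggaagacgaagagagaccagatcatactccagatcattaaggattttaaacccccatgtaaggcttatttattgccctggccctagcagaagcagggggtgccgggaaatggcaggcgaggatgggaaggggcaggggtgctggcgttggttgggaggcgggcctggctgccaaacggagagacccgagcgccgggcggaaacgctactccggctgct
Psmd3, chr11:98543618-98543917, plus strand: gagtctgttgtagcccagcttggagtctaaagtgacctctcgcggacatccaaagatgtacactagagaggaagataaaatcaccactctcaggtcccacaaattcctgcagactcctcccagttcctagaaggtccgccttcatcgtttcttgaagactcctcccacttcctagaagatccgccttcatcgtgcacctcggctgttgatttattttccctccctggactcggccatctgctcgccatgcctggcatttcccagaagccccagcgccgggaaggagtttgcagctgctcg
Counting the start itself as 0, the antioxidant response element core lay from −47 to −39 in Psmb5 and from −38 to −30 in Psmb6. Psmb7 had an NF-Y match from −71 to −67, on the opposite strand. The promoters of Psmb8, Psmb9, Psmb10, Psme1 and Psmd3 held no match to any of these 3 patterns.

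Nearly all subunit genes carried a peak at a start site in both libraries. Among the 42 genes outside the immunoproteasome, 40 had a start site peak in control, 40 had one after inactivation, and the same 40 had one in both lists. This was 95.2% of the genes (95% exact Clopper-Pearson interval 83.8 to 99.4%, counting error only), against 68.5% of all coding genes in control, 65.7% in Taf4-inactivated and 62.8% in both. None had a start site peak in 1 list only, where 5.69% of coding genes had one in control only and 2.88% in Taf4-inactivated only. The 2 genes without a peak in either list, the state of 28.6% of coding genes, were Psma8, an alpha subunit of the testis proteasome on chromosome 18, and Psme2b-ps. Thus each of these genes for a subunit of the common 20S core and 19S particle had a start site peak in both libraries. Psmc3ip, the other gene that encodes no subunit, also had one in each list, at percentile 85.2 in control and 89.9 after inactivation.

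The main start, that of the coding transcript with the longest coding sequence, lay inside a peak for 38 of the 42 genes in control and 39 after inactivation, against 55.3% and 54% of coding genes. Psmb7 was the 1 gene covered in the Taf4-inactivated list only, where 4.18% of coding genes were covered in that list only. No gene was covered in control only, where 5.46% of coding genes were. The start of Psmb11, a catalytic subunit gene of the thymic cortical epithelium, was covered in neither list, although a weak peak lay nearby within the gene in both.

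The peaks were also high in their lists. A start site peak in the top 10% of its list by fold was held by 24 of 42 genes in control and 22 after inactivation, against 28.6% and 21.1% of coding genes. In both lists this was so for 19 genes, 45.2% (95% exact interval 29.8 to 61.3%), against 18.4% of coding genes. The median percentile of the 40 genes was 93.6 in control and 91.8 after inactivation, where the medians of all coding genes with a peak were 86.5 and 81.5. The highest average over both lists was that of Psma4, an alpha ring gene, at percentiles 98.7 and 98.5. Psma5 followed at 97.9 in control and 99.0 after inactivation, and Psmb2, a structural beta subunit gene, at 98.6 and 97.0. The lowest was Psmb11, at percentiles 26.7 and 21.2, followed by Psme1 and by the base ATPase gene Psmc1, at 66.1 in control and 68.7 after inactivation.

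**Figure D1:**
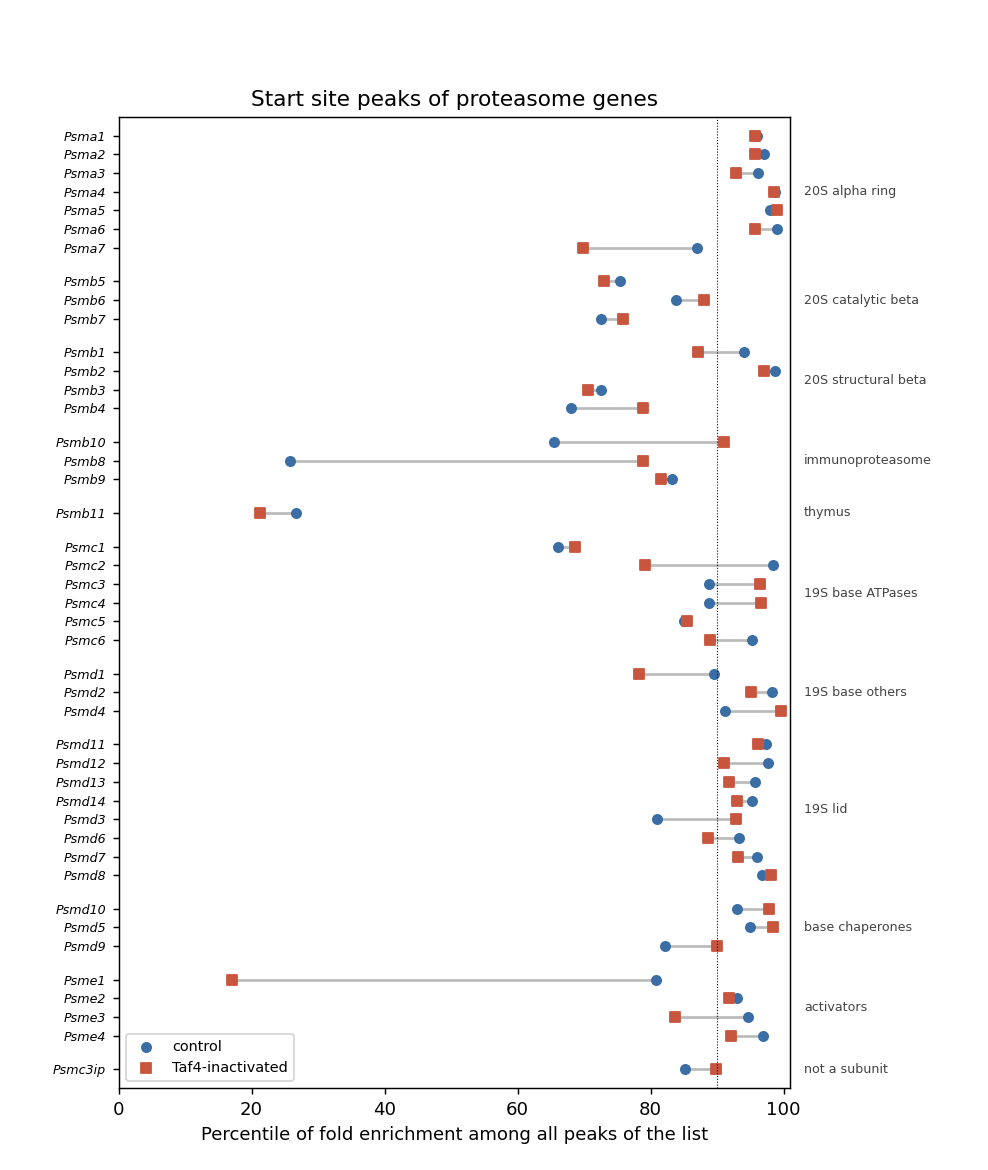
Percentile of fold enrichment of the start site peak of each proteasome gene among all peaks of its list (x axis, 0 to 100), in control (blue circles) and Taf4-inactivated enteroids (red squares), by role, with 1 library per genotype and a dotted line at the top 10%. Most genes sit above percentile 60 in both lists, while Psme1, Psmb8 and Psmb10 have the longest lines between their points.

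In the alpha ring of the 20S core, which gates the entry to the barrel, 6 of 7 genes were in the top 10% in control and 6 after inactivation. The exception in both lists was Psma7, at percentiles 87.0 and 69.8, whose peak also covered the start of the neighbouring gene Ss18l1. The other alpha ring genes lay between percentiles 92.9 and 99.0 in both lists, so that their peaks were among the most enriched of each library. Peaks over 6 of the 7 were wider after inactivation, with Psma3 the exception, where 55.6% of coding genes were wider in control.

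The genes of the 3 constitutive catalytic subunits, which carry the proteolytic sites of the core, stood lower in their lists than 6 of the 7 alpha ring genes, and none of them was in the top 10% of either list. Psmb5 had a fold of 2.23 in control and 2.90 after inactivation, at percentiles 75.4 and 72.9. Psmb6 had folds of 2.37 and 3.55, at percentiles 83.9 and 88.1. Psmb7 had folds of 2.20 and 2.99, at percentiles 72.5 and 75.9. Among all peaks each of the 3 thus kept its place to within 5 percentile points by fold. Among coding start site peaks Psmb6 was higher by 17.5 points after inactivation, Psmb7 by 8.91 and Psmb5 by 2.78, and taking the widest peak gave 24.7 points for Psmb6. All 3 peaks were wider in the Taf4-inactivated list, where 55.6% of coding genes were wider in control. The Psmb5 peak spanned 597 bp in control and 763 bp after inactivation, the Psmb6 peak 610 and 1106 bp, and the Psmb7 peak 434 and 808 bp. The control peak of Psmb7, chr2:38499072-38499505, began 102 bp inside the gene from the main start and covered another annotated start, and the Taf4-inactivated peak, chr2:38499037-38499844, reached from −237 to 570 bp relative to the start.

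Of the structural beta subunit genes, Psmb2 and Psmb1 were in the top 10% in control and Psmb2 alone after inactivation. Psmb1 lay at percentiles 94.0 and 87.2, and Psmb3 at 72.5 and 70.6. Psmb4 went from percentile 68.1 in control to 78.9 after inactivation, a difference of 10.8 points that was the second largest upwards among the 40 genes when ranked among all peaks. Among coding start site peaks it was 16.8 points, below the 6 genes that were higher by 20 points or more there. Peaks of all 4 structural genes were wider in the Taf4-inactivated list, where 55.6% of coding genes were wider in control.

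Of the 6 ATPase genes of the 19S base, 2 were in the top 10% in control and 2 after inactivation, but not the same ones. Psmc2 and Psmc6 were there in control, at percentiles 98.4 and 95.2, and lay at 79.1 and 88.9 after inactivation. Psmc3 and Psmc4 showed the opposite order, at 88.7 and 88.8 in control and 96.4 and 96.6 after inactivation. The fold of Psmc2 was 3.34 in control and 3.11 after inactivation. With folds relative to the background of each library, it was 1 of 2 members with a lower value in the Taf4-inactivated list, the other being Psme1, and its peak also covered the start of Dnajc2, which encodes a ribosome-associated chaperone.

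Among the other base subunit genes, Psmd4, whose product is a ubiquitin receptor, reached the highest fold of any member, 5.45 at percentile 99.6 of the Taf4-inactivated list, against 2.63 at percentile 91.2 in control. Psmd2, a scaffold subunit gene, lay at 98.2 and 95.1, and Psmd1, the other scaffold gene, at 89.5 and 78.3. Of the 8 lid genes, 7 were in the top 10% in control and 7 after inactivation. Psmd3 entered this class, with percentiles of 81.0 in control and 92.8 after inactivation, and Psmd6 left it, with 93.2 and 88.5. Psmd14, the gene of the lid deubiquitinase, lay at 95.2 and 93.0.

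Genes of the chaperones that assemble the base, Psmd5, Psmd9 and Psmd10, were all placed higher after inactivation, where 34.2% of coding genes were. This also held for the same peaks by −log10 p and among coding start site peaks, where 68% and 55.7% of coding genes were lower. These 3 genes are too few to be set apart from the shares, and the Psmd10 peak also covered the start of Atg4a. Psmd5 lay at percentiles 94.9 and 98.4, Psmd10 at 93.0 and 97.8, and Psmd9 at 82.2 and 89.9. The 4 activator genes, whose products open the core in place of the 19S particle, were all placed lower among all peaks by fold. Of all coding genes, 65.8% were lower on this scale. Among coding start site peaks 3 were lower and Psme2 was higher by 5.15 points, and by −log10 p the difference of Psme2 was 0.27 points. On the scale of all peaks Psme2 lay at percentile 93.0 in control and 91.8 after inactivation, Psme4 at 96.9 and 92.0, and Psme3 at 94.6 and 83.6.

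Psme1, an interferon-inducible activator gene that works together with Psme2, had the largest rank difference of any member when ranked among all peaks. Its peak had a fold of 2.31 at percentile 80.8 in control and 2.16 at percentile 17.0 after inactivation, a difference of −63.8 points. The −log10 p of the same peak was 7.42 in control and 4.51 after inactivation, and ranking by it gave percentiles of 88.1 and 45.4, a difference of −42.7 points. The extent of the peak hardly differed: it was chr14:56197183-56198608 in control and chr14:56197169-56198610 after inactivation, and all 1426 bp of the control peak lay inside the other. Relative to the main start it ran from −14 to 1411 bp in control and from −28 to 1413 bp after inactivation. No start of another gene lay within 1 kb of it. The start of its partner gene Psme2 is shared by a peak with Rnf31, and that peak differed by −1.21 points.

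Set against all coding genes, the 40 genes differed little in direction. Their percentile was lower after inactivation for 25 genes and higher for 15, where 65.8% of coding genes were lower and 34.2% higher. The median difference was −1.51 points, against −2.77 for all coding genes with a peak in both lists, and ranking by −log10 p gave −1.74 against −2.66, with 24 of 40 genes lower against 68% of coding genes. Only Psme1 was lower by 20 points or more and no gene was higher by as much, where 12.3% of coding genes were lower and 7.86% higher by 20 points or more. Percentiles near the top of a list leave little room, so the start site peaks of coding genes were also ranked among themselves. On that scale the direction of the median turned: 17 of the 40 genes were lower and 23 higher, where 55.7% of coding genes were lower, and the median difference was 1.06 points against −1.90 for all coding genes. The 40 genes then had median percentiles of 69.8 in control and 72.7 after inactivation.

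Ranked among coding start site peaks, 2 of the 40 genes were lower and 6 higher by 20 points or more, where 13.1% of coding genes were lower and 10.9% higher by as much. The 2 lower genes were Psmc2, at 91.3 in control and 46.2 after inactivation, and Psme1, at 41.3 and 5.98. The 6 higher genes all belonged to the 19S particle or its chaperones, but so did Psmc2 among the lower ones. Of the 17 genes of the 19S particle, 8 were lower on this scale, where 55.7% of coding genes were. Psmd4 went from 61.3 to 98.8, Psmd3 from 41.6 to 75.9, Psmc4 from 55.3 to 88.1 and Psmc3 from 55.2 to 87.3. The chaperone genes Psmd10 and Psmd9 went from 67.6 to 92.5 and from 43.2 to 67.7. Between 15 and 20 points higher were the core genes Psmb6, by 17.5, and Psmb4, by 16.8. So were Psmc3ip, by 19.9, and the chaperone gene Psmd5, by 19.8. A spread of this size among genes whose products form 1 complex has no replicate check here.

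**Figure D2:**
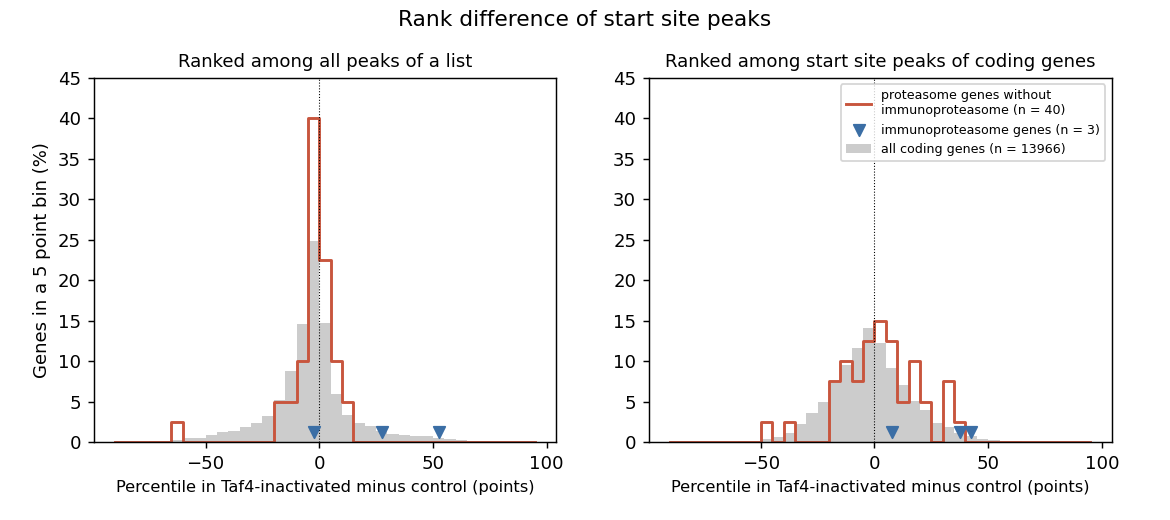
Percentile of the start site peak in Taf4-inactivated minus control enteroids (x axis, points) against the share of genes per 5 point bin (y axis, %), for all coding genes with a peak in both lists (grey bars, n = 13966), the 40 proteasome genes (red line) and the 3 immunoproteasome genes (blue triangles, height without meaning). Ranked among all peaks (left) the proteasome genes sit near 0 with Psme1 apart at −63.8, and ranked among coding start site peaks (right) they spread from −45.1 to 37.5 points.

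The immunoproteasome genes all had a peak within 1 kb of a start in both lists. The main start was inside a peak for 1 of 3 genes in control and 2 of 3 after inactivation, where 55.3% and 54% of coding genes were so covered, and 3 genes are too few to be set apart from these shares. Psmb9, next to the peptide transporter gene Tap1 in the MHC region and facing away from it, shared with Tap1 a broad peak over both starts, so that its main start was covered in both lists. That peak had folds of 2.36 in control and 3.21 after inactivation, at percentiles 83.2 and 81.6. It spanned chr17:34323799-34325189 in control and chr17:34323956-34325295 after inactivation, with 1234 bp in common.

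At Psmb8, on the same chromosome, the 2 libraries had different peaks that shared 0 bp, and neither overlapped any peak of the other list. Among coding genes with peaks in both lists, 5.7% had 2 peaks that did not overlap. In control the peak was chr17:34335270-34335598, 535 to 863 bp after the main start, and 221 of its 329 bp lay in exons, 147 of them coding. Another annotated start of Psmb8, not the main one, lay inside this control peak. In Taf4-inactivated enteroids it was chr17:34334453-34334798, from −282 to 63 bp relative to the main start, and held no coding sequence. The folds were 1.92 at percentile 25.8 and 3.10 at percentile 78.8, so the rank difference of 53.0 points compares 2 places in the gene and not 1 element. Ranking by −log10 p, 4.26 and 8.25, gave a difference of 18.5 points. The RefSeq start of Psmb8 matched mm9 405 bp after the main start, between both peaks, and was inside neither peak.

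At Psmb10 the peaks of both lists lay inside the gene and left the annotated start uncovered. The control peak, chr8:108460781-108461620, ran from 672 to 1511 bp after the start, with 382 bp in coding exons and 458 bp in introns. The Taf4-inactivated peak, chr8:108460793-108461327, ran from 965 to 1499 bp and lay wholly within it. The fold at Psmb10 was 2.13 at percentile 65.5 in control and 3.76 at percentile 91.0 after inactivation, a difference of 25.5 points, and ranking by −log10 p gave 9.25 points. Ranked among coding start site peaks the differences were 43.7 points for Psmb10, 35.7 for Psmb8 and 5.69 for Psmb9. The Psmb8 value again compares 2 places in the gene, and that of Psmb9 belongs to the peak shared with Tap1. All 3 genes stood higher on that scale in the Taf4-inactivated list, where 55.7% of coding genes were lower. Again, 3 genes are too few to be set apart from this share. The differences of their constitutive counterparts on that scale, given above, were upwards as well.

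The 300 bases at the centre of the stretch shared by the Psmb10 peaks are shown because the peaks lay there and not at the annotated start.
Psmb10 peak, chr8:108460910-108461209, minus strand: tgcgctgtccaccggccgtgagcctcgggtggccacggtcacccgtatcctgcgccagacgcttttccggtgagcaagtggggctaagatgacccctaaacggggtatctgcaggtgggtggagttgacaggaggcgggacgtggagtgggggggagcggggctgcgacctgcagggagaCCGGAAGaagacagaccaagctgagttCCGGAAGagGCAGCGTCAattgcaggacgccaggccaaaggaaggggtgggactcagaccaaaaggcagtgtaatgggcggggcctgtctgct
Capitals again mark the antioxidant response element core, here once on the opposite strand, and the ETS site, here at 2 places. These bases had a GC content of 63.7% and an observed to expected CpG ratio of 0.665, against 45.7% and 0.192 in the promoter window at the annotated Psmb10 start shown above. A single RefSeq start was matched for Psmb10 and was the annotated one.

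**Figure D3:**
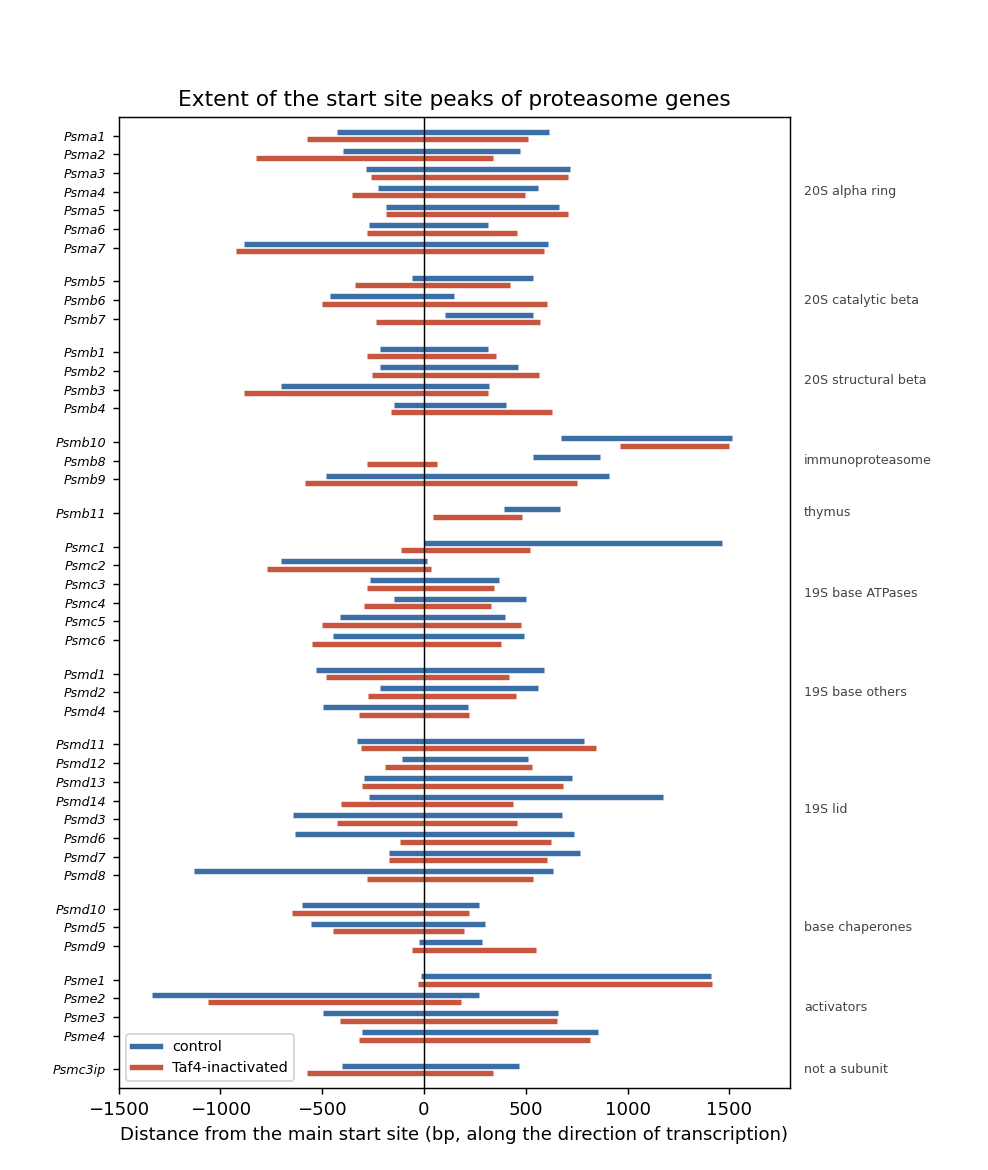
Extent of the start site peak of each proteasome gene relative to its main start (x axis, bp, with 0 at the start and transcription to the right), in control (blue) and Taf4-inactivated enteroids (red), with genes by role and 1 library per genotype. Peaks of most genes straddle 0, while those of Psmb10 and Psmb11 lie inside the gene in both lists and the Psmb8 bars do not meet.

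Across the 40 genes outside the immunoproteasome, the medians of the peak edges were −299 and 536 bp from the main start in control and −314.5 and 487.5 bp after inactivation. Median widths were 871 and 846 bp, against 1049 and 980 bp for all coding genes. The peak was wider in control for 19 of 40 genes, where 55.6% of coding genes were wider in control. Both peaks of a gene overlapped by at least 50% of each for 36 of 40 genes, against 80% of coding genes, and no gene had peaks that did not overlap.

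The 20S core and the 19S particle differed in the direction of this width difference, a split made after the values had been seen. Of 14 genes of the core, leaving out the testis, thymus and immunoproteasome genes, 13 had the wider peak after inactivation, with Psma3 the exception. Of 17 genes of the base and lid, 13 had the wider peak in control, the exceptions being Psmc2, Psmc5, Psmd11 and Psmd12. Of all coding genes with a peak in both lists, 55.6% were wider in control. Median widths of the core genes were 732.5 bp in control and 872.5 bp after inactivation, and those of the 19S genes 940 and 806 bp. The median difference per gene was 147.5 bp in the core and −48 bp in the 19S particle, against −33 bp for all coding genes. Differences ran from −36 to 496 bp in the core, where Psmb6 had the largest, and from −946 to 172 bp in the 19S particle, where Psmd8 had 1764 bp in control and 818 bp after inactivation. Ranked among all peaks, 10 of 14 core genes and 10 of 17 genes of the 19S particle were placed lower after inactivation, where 65.8% of coding genes were. Ranked among coding start site peaks, 5 of 14 and 8 of 17 were lower, where 55.7% of coding genes were.

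**Figure D4:**
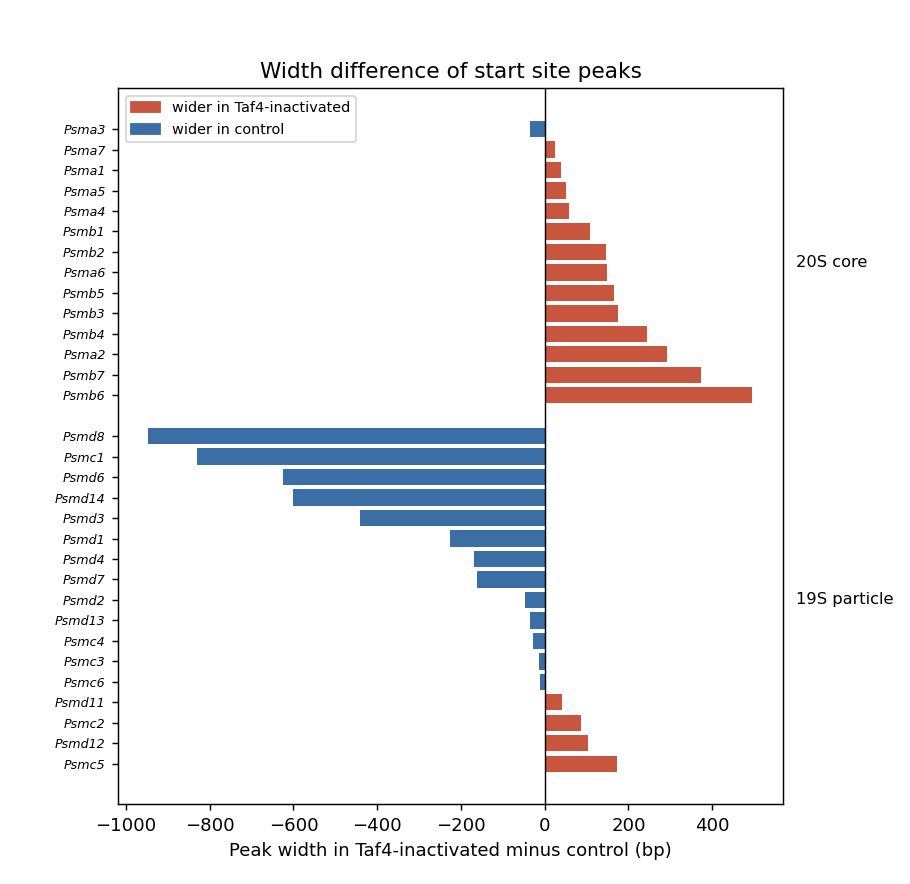
Width of the start site peak in Taf4-inactivated minus control enteroids (x axis, bp) for 14 genes of the 20S core and 17 genes of the 19S particle, sorted within each, with 1 library per genotype. Core bars point to the wider peak in Taf4-inactivated enteroids in 13 of 14 genes, and 19S bars to the wider peak in control in 13 of 17. Of all coding genes, 55.6% were wider in control, and the split was made after the values had been seen.

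Some start site peaks could belong to a neighbour. For 8 of the 42 genes the peak also covered the start of another coding gene, in both lists: Mrpl32 beside Psma2, AY074887 beside Psma4, Ss18l1 beside Psma7, Dnajc2 beside Psmc2, Ftsj3 beside Psmc5, Atg4a beside Psmd10, Sirt3 beside Psmd13 and Rnf31 beside Psme2. Counting starts of any gene type within 1 kb of the peak, 12 of the 42 genes and Psmb9 were affected. The openness of the 2 genes cannot be told apart at such a peak. This holds for genes placed lower, such as Psmc2 and Psma7, and for Psmd10, which was higher by 24.8 points among coding start site peaks. Of the other genes that stood higher by over 20 points on that scale, Psmd3 had the start of Gm12356 and Psmc3 that of Gm13778 within 1 kb of the peak.

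Some recognition sequences were more frequent in the promoters of the 42 genes than in coding promoters as a whole. A match to the ETS site CCGGAAG on either strand was found in 16 promoters, 38.1% (95% exact interval 23.6 to 54.4%), against 11.0% of all coding promoters of the same length. YY1 sites, AAGATGGCG, were found in 4, those of Psmb6, Psmc5, Psmd7 and Psmd11, which is 9.52% (2.66 to 22.6%) against 1.93%. GC boxes, GGGCGG, were found in 64.3% (48.0 to 78.4%) against 44.7%. The antioxidant response element core TGACNNNGC was found in 7, those of Psmb2, Psmb5, Psmb6, Psmc6, Psmd7, Psmd9 and Psmd12, which is 16.7% (6.97 to 31.4%) and overlaps the 12.7% of all coding promoters in this window. In the longer window of 500 bases before to 100 after the start it was 38.1% (23.6 to 54.4%) against 21.9%. NF-Y sites, CCAAT, were in 42.9% (27.7 to 59.0%) against 37.7%, sites of nuclear respiratory factor 1 in Psma2 only against 1.17%, and the TATA box, TATAAA on the strand of the gene between positions −40 and −20, in none against 2.28%. The median GC content of these promoters was 57.2% and the median observed to expected CpG ratio 0.787, against 55.7% and 0.552 for all coding genes. None of these letter patterns contains another, and a match describes the sequence and is no evidence of binding.

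The ETS matches lay mostly in genes of the 19S particle, with 10 of 17 against 1 of 14 in the 20S core, which was Psma6. Of all coding promoters, 11.0% had a match, and the split is the one made after values had been seen. Matches at Psma8, Psmc3ip, Psme2b-ps, Psme3 and Psme4 lay outside both sets. Antioxidant response element cores were in 3 of 17 and 3 of 14, and NF-Y sites in 6 of 17 and 8 of 14. Over the genes with a peak in both lists, the median rank difference among all peaks was −3.14 points with an ETS match and −0.77 points without one, and this difference has no test here.

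**Figure D5:**
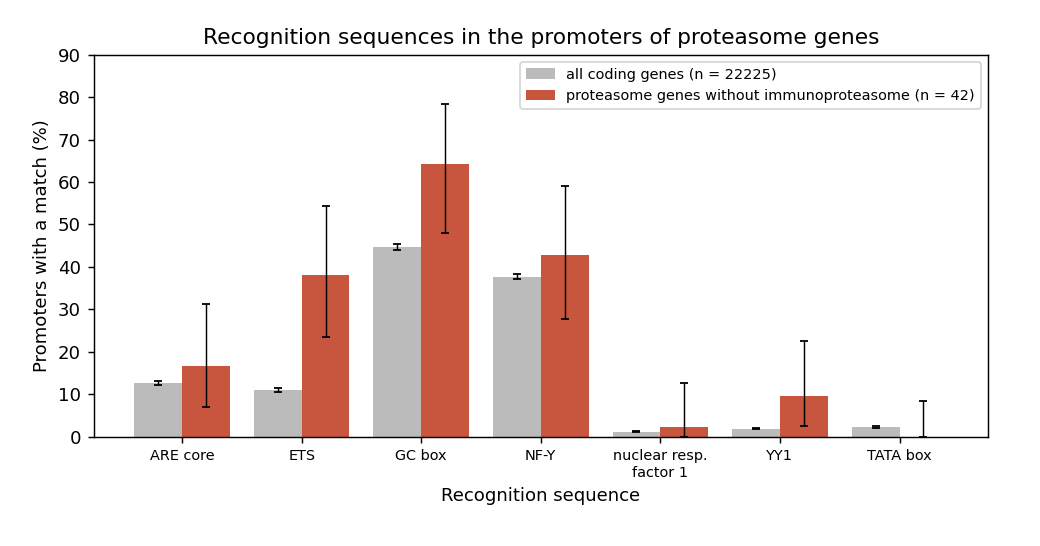
Share of promoters (y axis, %) with at least 1 match to each recognition sequence (x axis) in 300 bases around the main start, for all coding genes (grey) and the 42 proteasome genes outside the immunoproteasome (red), with exact 95% intervals for counting error. The red ETS and YY1 bars stand at 38.1 and 9.52%, with intervals above the grey bars at 11.0 and 1.93%.

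Within the gene and 10 kb on either side, and over 1 kb from every annotated start, the 42 genes had 55 peaks in control and 48 after inactivation, of which 27 in each list overlapped a peak of the other. Such a peak was present at 69.0% of the 42 genes in control and 64.3% after inactivation, close to the 67.1% and 61.5% of all coding genes, and the median was 1 per gene in both sets and both lists. These are 49.1% of the control peaks (95% exact interval 35.4 to 62.9%) and 56.2% of the Taf4-inactivated ones (41.2 to 70.5%), where the shares around all coding genes were 39.1 and 51.6%. The mean per gene was 1.31 and 1.14 peaks, against 2.41 and 1.84 for all coding genes, which differ in length. Psmd1 had the most in control, with 8 peaks there and 4 after inactivation, and all 4 of the second overlapped a control peak.

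The rest of the proteasome system was taken as 40 genes outside the symbol rule. Start site peaks were present for 39 of them in control and for all 40 after inactivation, against 68.5% and 65.7% of all coding genes. Psmg3, a gene for a chaperone of core assembly, had a peak only in the second list, at percentile 3.35. Of all coding genes, 2.88% had a peak in that list only. Of the 39 genes with both peaks, 28 were placed lower and 11 higher after inactivation, where 65.8% of coding genes were lower and 34.2% higher. The median difference was −2.91 points, near that of all coding genes. Median percentiles were 89.6 and 82.9.

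Differences of 20 points or more are given for 4 of these genes. Psmf1, encoding a proteasome inhibitor, lay at percentiles 79.5 and 54.0, and Nfe2l3, a relative of the proteasome gene regulator Nfe2l1, at 90.7 and 64.2. Sqstm1, encoding a receptor that binds ubiquitinated cargo, lay at 80.3 in control and 52.6 after inactivation. Maff, encoding a small Maf partner of Nfe2l1, stood higher after inactivation, at 51.5 and 74.0, and its difference by −log10 p was 4.22 points. Nfe2l1 itself lay at 94.8 and 91.6, and Ddi2, the protease that activates its product, at 93.6 and 99.3.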

How the data were processed

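The ATAC-seq peaks of 1 library per genotype, control and Taf4-inactivated, were used, with groups from the labels. Per the submitters' processing notes and the study's methods, the authors used bcl2fastq 2.17.1.14, mapped reads to mm9 with Bowtie 1.0.0, keeping unique alignments, and called broad peaks per library with MACS2 2.1.1, without a model, with a shift of −100 and reads extended to 200 bp. Treatment of duplicate and mitochondrial reads is not given in the sources used here. The deposited score is a whole number made from the −log10 q, the deposited fold is an enrichment over background taken from each library itself, and the deposited −log10 p and −log10 q are those of the peak. The authors' caller works on each library alone, so lists depend on depth.

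Peaks were assigned to transcript starts of the GENCODE annotation on mm9, after all peak ends were found within its chromosomes. Symbols with 2 gene identifiers were merged. For depth, the background level at which the fold of a peak and its Poisson p hold together was solved, and its 5th percentile among the narrowest 10% of peaks was taken. Promoter sequences are from the mm9 genome, and RefSeq start windows, of another build, were located in mm9 by sequence for 37 genes. Python 3.11.15, numpy 2.4.6, pandas 2.3.3, scipy 1.17.1 and matplotlib 3.10.9 were used, and peak assignment, motif search and the depth estimate were tested on simulated data. For depth, the simulated p was made with the same relation that the estimate solves. That test checked the calculation only, and whether the deposited values follow the relation was not tested. No test between genotypes was possible with 1 library each. Genes named were every catalytic subunit gene, members without a peak in a list, the 3 largest rank differences in each direction, the 3 highest and 3 lowest ranks, members that are not subunits, and genes of the wider system without a peak in a list or with a difference past 20 points, some of which are not reported here. Others are given by role and were named after their values were seen. The members and lists were chosen with earlier results of these data known. Alternatives changed the q threshold, the distance to a start, the ranking value, the peak taken per gene, the top share, the promoter window and the distance beyond a gene, and the RefSeq starts and the exclusion of Psme1 were chosen after seeing the data.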

Additional observations from a re-analysis of the deposited data

How the results depend on the processing

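No paired analysis was possible because each genotype had 1 library, and none could be left out. Shares were called moved outside their exact interval, ranks and rank differences past 5 points, and counts and widths past 1.5 times. Of 109 values under an alternative for the comparisons, 82 stayed, 25 moved and 2 changed sign, and of 78 values of single genes 47 stayed, 19 moved and 12 changed sign. Requiring a −log10 q of at least 5 left 71.4% of the 42 genes with a start site peak in control, 88.1% after inactivation and 71.4% in both lists, against 35.6%, 46.6% and 34.2% of all coding genes. Ranking among coding start site peaks gave medians of 69.8 and 72.7, a median difference of 1.06 points, 42.5% of genes lower, and 2 lower and 6 higher by 20 points or more. It also gave 2.78 points for Psmb5 and 5.69 for Psmb9, and an immunoproteasome median of 35.7 points in place of 25.5, while ranking by −log10 p gave 9.25. Ranking by width gave medians of 69.7 and 72.2, a median difference of 3.68 points, 25% of genes lower, and 3 lower and 5 higher by 20 points. By width the differences were 16.0 points for Psmb5, 1.92 for Psmb9, −17.2 for Psmb10, 24.1 for Psmb11, 3.09 for Psme1, 9.97 for Psmc2, 2.92 for Psma7, −13.1 for Psmd3 and −8.09 for Psmd4. Taking the widest peak gave 2 lower and 1 higher, and −88.0 points for Psmd4, where it picked another peak inside the gene. A limit of 10 points gave 5 lower and 2 higher, and leaving out Psme1 gave 0 lower. Top shares of 5% held 40.5% and 33.3% of the genes, and of 25% held 83.3% and 81.0%. In promoters of 500 bases before to 100 after the start, the antioxidant response element core was in 38.1% (23.6 to 54.4%) of the 42 genes against 21.9% of all coding genes, so that the interval no longer overlapped the coding share, and the NF-Y site in 66.7% against 57.2%. The cause of these changes was not tested. The depth estimate after inactivation was 60.5% of control. Whether depth limited which weak peaks could be called there was not tested.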
